A study of Mus musculus with 10 samples.

Results

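The 3 libraries described here are microglia from wild-type (WT) mice: 1 library after 4 weeks on cuprizone, 1 after 12 weeks on cuprizone and 1 control that received no cuprizone. They were chosen by their titles and are 3 of the 10 libraries of a microarray study that set WT against Trem2-/- mice. All 3 came from C57BL/6 males labelled 8 to 12 weeks old, and the diet held 0.2% cuprizone. The other 7 libraries were a Trem2-/- control, 2 Trem2-/- cuprizone libraries (4 and 12 weeks) and 4 libraries from mice of either genotype returned to normal food for 2 weeks after either feeding time. The Trem2-/- mice lack Trem2, a lipid-sensing receptor of microglia. Microglia were sorted by flow cytometry straight into lysis buffer, and 2 ng of total RNA per library was amplified into biotinylated cRNA, per the labels. The sources used here give neither the sort gate nor the number of mice behind each library.

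Cuprizone binds copper and is toxic to oligodendrocytes, so that axons lose their myelin while the diet lasts. Microglia, the resident macrophages of the brain, take up the lipid-rich myelin debris, break it down in lysosomes and export or store its cholesterol. While doing so they are known to lower genes of their resting state and to raise lipid-handling, lysosomal and phagocytic genes. The comparison asked which genes differed from the control in WT microglia at each feeding time.

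Values are log2 of the deposited linear intensity, and 1 unit is a 2-fold difference. The median of the whole table was 5.27, and levels near or below it are close to background. Median intensities were 37.6 at 4 weeks, 39.3 at 12 weeks and 39.0 in the control. The submitters' sample numbers form 2 runs. The 4-week and the control library lie in the first (6 libraries, both controls among them), and the 12-week library lies in the second (4 libraries, all titled 12 weeks, with 0 controls). Duration and run therefore cannot be told apart for the 12-week library. Across all probes, log2 intensities correlated at 0.985 between the 4-week and control libraries of the first run, 0.976 between the 12-week and control libraries and 0.979 between the 12- and 4-week libraries. Trem2 had the log2 intensities 10.81 at 4 weeks, 10.70 at 12 weeks and 10.72 in the control, so the receptor itself was at the same level within 0.09 of the control in both libraries.

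The labelled cell type was checked against 10 genes that mark microglia, among them P2ry12, Tmem119, Cx3cr1 and Sall1. Their log2 intensities lay between 10.16 and 12.22 at 4 weeks, between 9.62 and 12.14 at 12 weeks and between 10.75 and 12.53 in the control. Of 11 oligodendrocyte markers on the array, 3 exceeded the table's median at 4 weeks, 4 at 12 weeks and 3 in the control. The brightest were Cnp, an enzyme of myelin, with 6.99 at 4 weeks, 6.95 at 12 weeks and 6.96 in the control, and the myelin protein Mbp, with 6.27 at 4 weeks, 6.06 at 12 weeks and 6.23 in the control. The summed linear intensity of the neutrophil markers was 6398.6 at 4 weeks, 285.6 at 12 weeks and 7330.7 in the control. In the other groups of the study, too, neutrophil markers were lower in the library titled 12 weeks than in the one titled 4 weeks, with a median difference of −3.90. In bulk samples of sorted cells, fewer cells of a type and less RNA per cell cannot be told apart.

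Both feeding times were first set together against the control. Of 10792 genes tested, 16 passed limma's test in a fit of all 10 libraries (adjusted p under 0.05, 0.148%), all of them higher on cuprizone, and 0 genes were lower. At an unadjusted p under 0.05 there were 471 genes (4.36%). The 1 control library has no replicate, and the fit lends it the spread of the groups with 2 libraries, which is that between feeding times. Nothing in the labels ties libraries to separate animals or pools, so each p-value measures only the spread between these samples, which may be technical. With titled duration entered as a block, 102 genes were higher (0.945%) and 3 lower (0.0278%). A Trem2-/- cuprizone library is titled 12 weeks but has a time label of 4 weeks, and with that label the blocked fit called 37 genes higher and 0 lower, 36 of them among the 105. Of the genes given below with a p under 0.05 from the block, Cst7, Igf1, Postn, Atp6v0d2, Plin2, Ccl7, Lilrb4a and Egln3 passed with that label too. For the others the adjusted p by limma was then 0.054 to 0.19. The count was 2 without the 4-week WT library and 5 without the 12-week WT library or either Trem2-/- cuprizone library. It was 0 where every array had to exceed the table's median. That filter drops genes dim on any array, but Fabp5, Clec7a, Apoe, Lgals3, Gpr65 and Ms4a7 stayed in and were not called.

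Of the genes that rose, 4 belong to the lipoprotein and lipid uptake list (12 tested) and 2 to the lectin list (17 tested). The lists of fatty acid carriers, debris-uptake receptors, lysosomal proteins, integrins, matrix proteases and the Ms4a family hold 1 each. The lists were chosen with earlier results of these data known, so these counts are a description. The level of each gene is given here by feeding time. Apoc1, an apolipoprotein encoded beside Apoe, had log2 intensities of 10.83 at 4 weeks and 9.79 at 12 weeks, against 4.26 in the control (limma, adjusted p = 0.0059). Both libraries on cuprizone were far above the control, by 6.57 at 4 weeks and 5.53 at 12 weeks. Apoe, the main apolipoprotein of the brain, read 13 at 4 weeks and 12.92 at 12 weeks, against 10.62 in the control, which was already bright (adjusted p = 0.031). Lpl, the lipase that frees fatty acids from lipoproteins, read 9.86 at 4 weeks and 9.24 at 12 weeks, against 5.49 in the control (adjusted p = 0.025). Fabp5, a carrier of fatty acids inside cells, read 9.16 at 4 weeks and 8.47 at 12 weeks, against 6.05 in the control (adjusted p = 0.028). Olr1, a receptor for oxidised lipoprotein, was further from the control at 12 weeks (7.88) than at 4 weeks (7.21), with a control level of 3.92 (adjusted p = 0.031).

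Among surface receptors, Axl, which binds apoptotic cells through a bridging ligand, read 8.83 at 4 weeks and 8.47 at 12 weeks, against 5.43 in the control (limma, adjusted p = 0.015). Itgax, the integrin CD11c, read 8.88 at 4 weeks and 8.18 at 12 weeks, against 5.20 in the control (adjusted p = 0.018). Clec7a, the β-glucan receptor dectin-1, had the same level of 9.40 at both feeding times and 6.24 in the control (adjusted p = 0.028). Gpr65, a receptor that senses acid, differed least of the 16 genes, with 9.19 at 4 weeks and 9.17 at 12 weeks, against 7.34 in the control (adjusted p = 0.047). Ms4a7, of a family of membrane proteins with 4 spans, read 8.46 at 4 weeks and 8.23 at 12 weeks, against 6.17 in the control (adjusted p = 0.048).

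Gpnmb, a glycoprotein of lysosomes in lipid-laden phagocytes, had the smallest p of all genes (limma, adjusted p = 0.0035), with 8.62 at 4 weeks and 7.99 at 12 weeks, against 3.83 in the control. Rab7b, a GTPase of late endosomes, read 6.70 at 4 weeks and 6.90 at 12 weeks, against 4.27 in the control (adjusted p = 0.028). The secreted or matrix proteins were Mmp12, Lgals3, Fam20c and Mamdc2. Mmp12, macrophage elastase, read 8.90 at 4 weeks and 8.89 at 12 weeks, against 4.96 in the control (adjusted p = 0.036). Lgals3, galectin-3, read 9.35 at 4 weeks and 9.18 at 12 weeks, against 6.75 in the control (adjusted p = 0.036). Fam20c, a kinase of secreted proteins, read 7.71 at 4 weeks and 7.44 at 12 weeks, against 4.99 in the control (adjusted p = 0.019). Mamdc2, an extracellular matrix protein, was the dimmest, with 5.69 at 4 weeks and 6.08 at 12 weeks, against 3.66 in the control (adjusted p = 0.028). It exceeded the table's median only in the WT libraries on cuprizone. Mamdc2 thus entered the test only through the group where it was high, and its p gives no separate support.

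Over the 16 genes, the difference from the control was 1.84 to 6.57 at 4 weeks (median 3.14) and 1.82 to 5.53 at 12 weeks (median 2.81), both taken against the same control library. The 12-week level was below the 4-week level for 13 of them. The difference between 12 and 4 weeks ran from −1.03 (Apoc1) to 0.66 (Olr1), and the mean of the same difference in the 3 other groups ran from −0.22 to 0.77. For 8 of the 16 the control lay below the table's median, where the size of a difference is uncertain. With all levels raised to at least that median, 15 of the 16 still differed by 2-fold or more at each feeding time, and the exception was Mamdc2 with 0.43 at 4 weeks and 0.81 at 12 weeks.

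**Figure D1:**
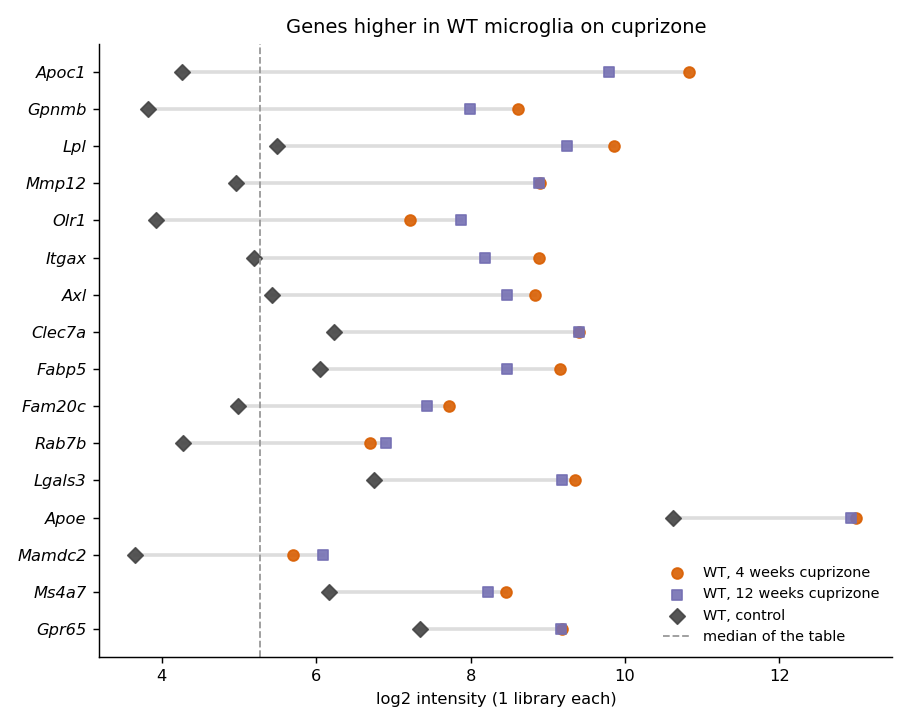
Log2 intensity of the 16 genes that passed limma's test in WT microglia, with 1 point per library for 4 weeks, 12 weeks and the control, and the table's median as a dashed line. For every gene both cuprizone points lie above the control point, with differences of 1.84 to 6.57 at 4 weeks and 1.82 to 5.53 at 12 weeks.

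At 4 weeks, the WT library on cuprizone was 2-fold or more above the control for 222 genes (2.06% of genes tested) and 2-fold or more below it for 27 (0.25%). The differences were 4-fold or more for 37 higher genes and for 1 lower gene, Ttr. A test is possible only if the 2 single libraries are assumed to vary like the other groups. It then called 5 genes higher (0.0463%), namely Apoc1, Gpnmb, Itgax, Axl and Fabp5, and 0 lower. By limma's unadjusted p under 0.05 there were 338 genes (3.13%). With the duration block it called 70 higher (0.649%) and 0 lower. Without either Trem2-/- cuprizone library it called 3, and without either WT recovery library 8.

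Several large differences at 4 weeks belonged to genes that did not pass the test of both feeding times. Ch25h, the enzyme that makes 25-hydroxycholesterol, read 8.61 at 4 weeks and 8.22 at 12 weeks, against 4.26 in the control (limma, adjusted p = 0.20, and 0.016 with the block). Cst7, an inhibitor of lysosomal cathepsins, read 10.98 at 4 weeks and 9.92 at 12 weeks, against 6.81 in the control (adjusted p = 0.057, and 0.00072 with the block). Both genes were thus brighter at 4 than at 12 weeks and dim or moderate in the control. Igf1, a growth factor for oligodendrocytes and their precursors, read 8.91 at 4 weeks and 8.51 at 12 weeks, against 5.46 in the control (adjusted p = 0.057, and 0.0039 with the block). Atp6v0d2, a subunit of the proton pump that acidifies lysosomes, read 7.0 at 4 weeks and 7.26 at 12 weeks, against 3.94 in the control (adjusted p = 0.093, and 0.0060 with the block). The matrix proteins periostin (Postn) and fibronectin (Fn1) also stood among the 15 largest. Postn read 7.87 at 4 weeks and 7.47 at 12 weeks, against 4.64 in the control (adjusted p = 0.057, and 0.0094 with the block). Fn1, which is also a marker of monocytes, read 7.28 at 4 weeks and 5.93 at 12 weeks, against 4.28 in the control (adjusted p = 0.63, and 0.016 with the block).

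The largest lower values at 4 weeks were smaller in size than the higher ones. Myo18b, an unconventional myosin, read 8.13 at 4 weeks and 7.39 at 12 weeks, against 9.97 in the control, and its difference between 12 and 4 weeks was −1.84 to −0.57 in the 3 other groups. Bank1, a scaffold of immune signalling, read 7.57 at 4 weeks and 6.94 at 12 weeks, against 8.88 in the control (limma, adjusted p = 0.23, and 0.051 with the block). Both were lower still in the 12-week library. Csmd3 fell with the block (adjusted p = 0.041, and 0.36 without it), with 8.85 at 4 weeks and 8.12 at 12 weeks, against 10.01 in the control. With the 4-week label of the conflicting library it did not pass (0.071). Nav3 and Upk1b were the other genes that fell with the block, and they are described with the homeostatic genes. S100b and Aldoc, markers of astrocytes, were also among the 15 lowest, with differences of −1.40 for S100b and −1.19 for Aldoc at 4 weeks. Neither passed, and the summed intensity of the astrocyte markers was 490.4 at 4 weeks, 422.7 at 12 weeks and 690.2 in the control. Their part in the result was not tested.

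At 12 weeks, the WT library on cuprizone was 2-fold or more above the control for 299 genes (2.77%) and 2-fold or more below it for 222 (2.06%). By 4-fold or more, 63 genes were higher and 19 lower. With the spread of the other groups, limma called 2 genes, Gpnmb and Apoc1, higher (0.0185%) and 0 lower. The unadjusted p was under 0.05 for 581 genes (5.38%). With the block, 18 were higher (0.167%) and 1, Mir146, lower (0.00927%). Without either Trem2-/- cuprizone library it called 0, and without either WT recovery library 6. The middle 90% of all differences lay between −0.76 and 0.77 at 12 weeks and between −0.45 and 0.63 at 4 weeks. The median over all genes was −0.01 at 12 weeks and 0.03 at 4 weeks.

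The 15 highest genes at 12 weeks included Ptgs2, Cd69, Tnfsf9, Clic4, Ccl5 and Egln3 beside Apoc1, Gpnmb, Lpl, Mmp12, Olr1, Clec7a, Ch25h and Atp6v0d2, with Ifnb1 at the top. Cd69, an early activation marker of lymphocytes and myeloid cells, read 7.84 at 12 weeks, against 4.43 in the control, with 6.23 at 4 weeks. Tnfsf9, the ligand of the co-stimulatory receptor CD137, read 10.17 at 12 weeks, against 6.90 in the control, with 8.63 at 4 weeks. Both were also higher at 12 than at 4 weeks in the other groups, each by a mean of 1.62. Of the 299 higher genes, 195 (65.2%) were higher at 12 than at 4 weeks in all 3 other groups, which hold no WT cuprizone library, as were 2356 of all 10792 genes (21.8%) and 48 of the 222 genes 2-fold higher at 4 weeks (21.6%). Of the 222 lower genes, 172 (77.5%) were lower at 12 than at 4 weeks in all 3, as were 3046 of all genes (28.2%).

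The 12-week library was then set against the 4-week library, with the same difference in the 3 other groups (WT recovery, Trem2-/- cuprizone and Trem2-/- recovery) beside it. In WT on cuprizone, 121 genes were 2-fold or more higher at 12 than at 4 weeks (1.12%) and 211 were 2-fold or more lower (1.96%). Of the 121 higher genes, 104 (86%) were also higher at 12 weeks in all 3 other groups, and 34 were past 2-fold in all 3. Of the 211 lower genes, 161 (76.3%) were lower in all 3, and 25 were past 2-fold in all 3. Over all genes tested, 4513 of 10792 (41.8%) had the WT sign in all 3, and 74 were past 2-fold with that sign in all 3. By direction, 21.8% of all genes were higher at 12 than at 4 weeks in all 3 other groups and 28.2% were lower. Across the 10792 genes, the WT difference and the mean of the other groups correlated at Pearson's r = 0.705 and Spearman's rho = 0.638. This is a description, since genes are not independent replicates and the libraries titled 12 weeks share a run. Neither limma's test of the WT difference (smallest adjusted p = 0.915) nor the test of WT against the other groups (smallest adjusted p = 0.706) called a gene in either direction. At an unadjusted p under 0.05 there were 301 genes in the test of the WT difference and 411 in the test against the other groups.

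**Figure D2:**
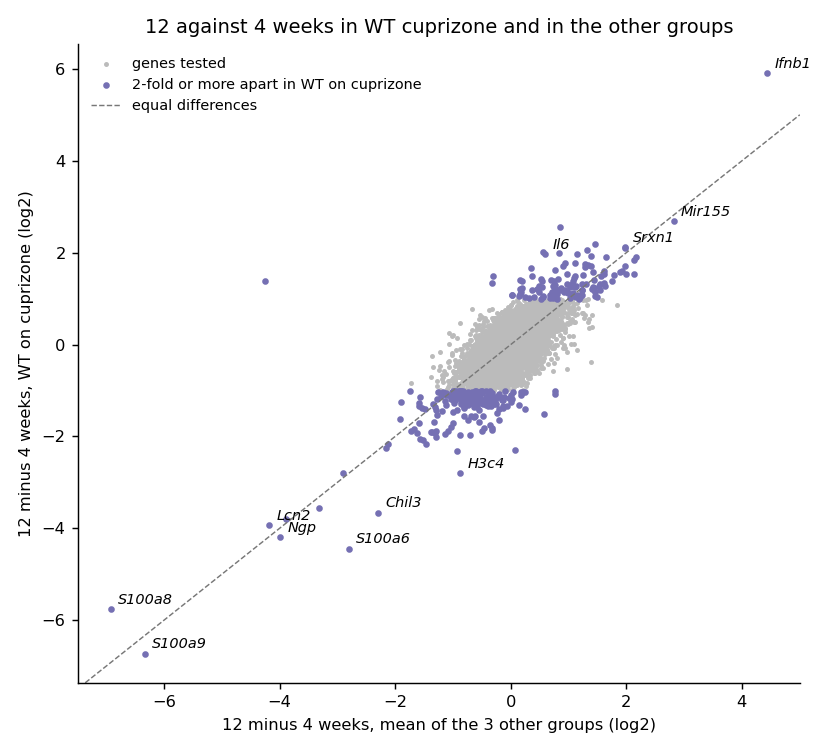
Each point is 1 of the 10792 genes, with the WT cuprizone difference between 12 and 4 weeks (log2) on one axis and the mean of the same difference over the 3 other groups on the other. The neutrophil genes S100a8 and S100a9 lie low on both axes and Ifnb1 lies high on both, and r was 0.705.

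The genes furthest apart show this gene by gene. Ifnb1, the cytokine interferon β, read 10.43 at 12 weeks, 4.51 at 4 weeks and 4.04 in the control. It was 3.88 to 4.76 higher at 12 than at 4 weeks in the 3 other groups as well. S100a9, a calcium-binding protein abundant in neutrophils, read 4.41 at 12 weeks, 11.14 at 4 weeks and 11.44 in the control, and its difference between 12 and 4 weeks was −7.92 to −4.63 in the other groups. S100a8, its partner, read 5.53 at 12 weeks, 11.30 at 4 weeks and 11.56 in the control. Ngp, a neutrophil granule protein, read 3.84 at 12 weeks and 8.03 both at 4 weeks and in the control. For these 4 genes the 4-week library was within 0.47 of the control, and every library titled 12 weeks was on the other side of every library of the first run.

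Srxn1, an enzyme that repairs oxidised peroxiredoxins, read 8.41 at 12 weeks, 6.29 at 4 weeks and 5.88 in the control, and was 1.61 to 2.21 higher at 12 weeks in the other groups. Il12b, a subunit shared by interleukins, read 8.14 at 12 weeks, 6.20 at 4 weeks and 5.25 in the control, and was 0.92 to 1.92 higher at 12 weeks in the other groups. The cytokine gene Il6 read 8.72 at 12 weeks, 6.76 at 4 weeks and 7.01 in the control. Its difference between 12 and 4 weeks was 1.97 in WT on cuprizone and 0.35 to 0.85 in the other groups. Klrd1, a receptor of natural killer cells, read 4.76 at 12 weeks, 6.59 at 4 weeks and 7.16 in the control, and the other groups differed by −0.80 to −0.22. Asns, the asparagine synthetase of the amino acid stress response, read 6.92 at 12 weeks, 5.43 at 4 weeks and 4.54 in the control. Its WT difference was opposite in sign to the mean of the other groups (−0.30), and it did not pass the test.

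Among the 10 largest higher differences between 12 and 4 weeks were 2 microRNA genes, Mir155, whose products act in activated macrophages, and Mir221. Mir155 read 8.18 at 12 weeks, 5.49 at 4 weeks and 5.08 in the control, and was 2.29 to 3.46 higher at 12 weeks in the other groups. Mir221 read 6.66 at 12 weeks, 4.46 at 4 weeks and 4.10 in the control. The array names the gene and not the arm, and labelled cRNA of the longer primary transcript cannot be told apart from the mature form. The mature sequences of both arms are given from RefSeq (GRCm38.p6, chromosomes 16 and X), with the seed, bases 2 to 8, in capitals, because the seed decides which messenger RNAs a microRNA binds.
mmu-miR-155-5p: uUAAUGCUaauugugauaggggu
mmu-miR-155-3p: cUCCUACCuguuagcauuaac
mmu-miR-221-3p: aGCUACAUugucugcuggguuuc
mmu-miR-221-5p: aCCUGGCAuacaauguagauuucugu
No seed is shared among the 4 arms.

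**Figure D3:**
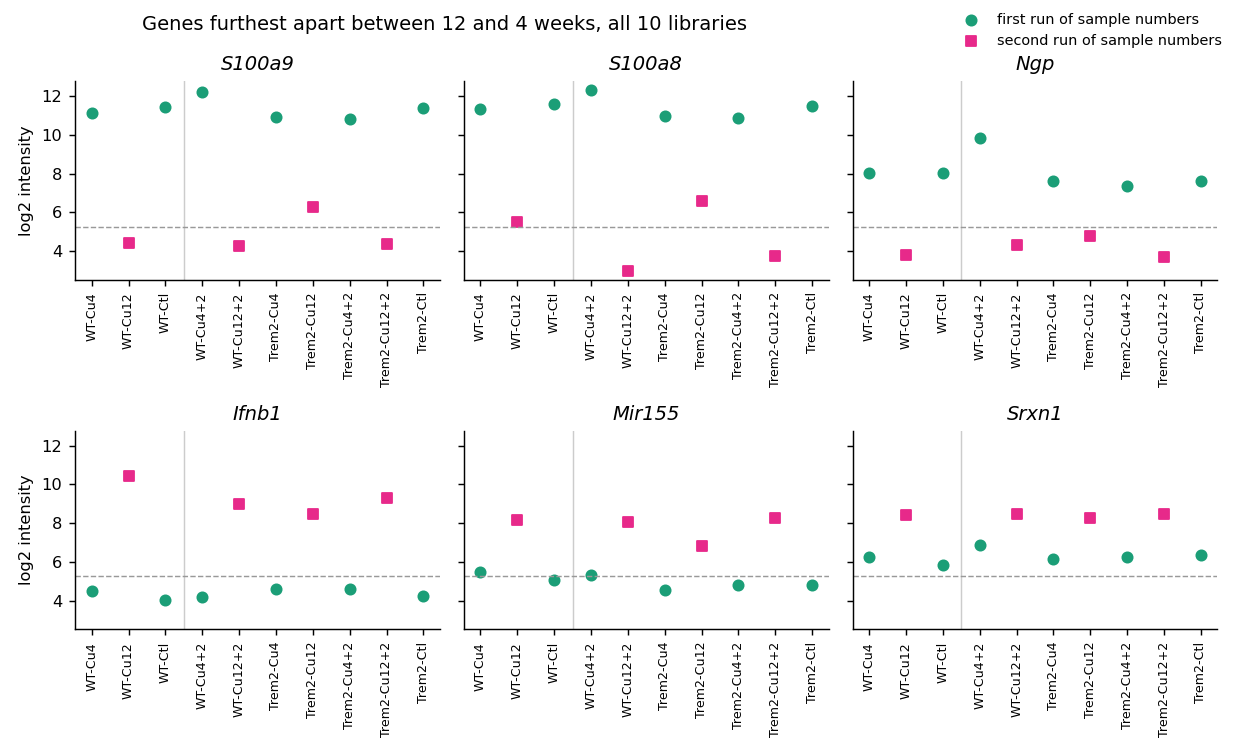
Log2 intensity of 6 of the genes furthest apart between 12 and 4 weeks in all 10 libraries, with 1 point per library, the 3 WT libraries of the comparison at the left and colour for the run of sample numbers. In S100a9, Ngp and Ifnb1 the 4 libraries of the second run lie apart from the 6 of the first, and the WT 4-week library lies beside the control.

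When the mean difference of the 3 other groups was subtracted from the 12-week difference, 203 genes (1.88%) were 2-fold or more higher than the control and 56 (0.519%) lower. Of the 299 genes higher before the subtraction, 129 were still past 2-fold, and of the 222 lower ones 34 were. The subtraction also removes any change with feeding time that all groups share, since duration and run cannot be told apart.

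Gene lists by function are described by the number of members past 2-fold and by their median. Over all genes tested, the medians were 0.03 at 4 weeks and −0.01 at 12 weeks. Of all genes tested, 2.06% were 2-fold higher and 0.25% 2-fold lower at 4 weeks. At 12 weeks these shares were 2.77% higher and 2.06% lower. Above 0 were 54.3% of all genes at 4 weeks and 49% at 12 weeks. The members tested are those bright enough on at least 2 of the 10 arrays, and they are fewer than the members on the array. The lipoprotein and lipid uptake list had 12 tested members of 13 on the array. Of these, 7 were 2-fold or more higher at 4 weeks (median 1.43) and 5 at 12 weeks (median 0.87), and 4 rose in the test of both. Cd36, a scavenger receptor for oxidised lipids, read 7.15 at 4 weeks and 6.01 at 12 weeks, against 5.18 in the control. Lrp1, a lipoprotein receptor, was the 1 member 2-fold lower at 12 weeks, with 9.45 at 4 weeks, 8.44 at 12 weeks and 9.67 in the control. The other groups had a mean difference of −0.98 between 12 and 4 weeks.

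Of 16 tested members of the cholesterol synthesis list, 0 were past 2-fold at either time, and the medians were 0.18 at 4 weeks and 0.25 at 12 weeks. Above 0 were 10 of the 16 at 4 weeks and 13 at 12 weeks. Of 9 tested genes of cholesterol efflux and the liver X receptor, a sterol-sensing nuclear receptor, 2 were 2-fold higher at 4 weeks (Ch25h and Scd2) and 1 at 12 weeks (Ch25h), and the desaturase Scd1 was 2-fold lower at both times. The efflux transporter Abca1 differed by 0.46 at 4 weeks and 0.30 at 12 weeks, and Abcg1 by 0.51 at 4 weeks and −0.01 at 12 weeks. Plin2, which coats lipid droplets, read 8.27 at 4 weeks and 8.86 at 12 weeks, against 6.87 in the control (limma, adjusted p = 0.19, and 0.0097 with the block).

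Of 25 tested lysosomal hydrolases and membrane proteins, 2 were 2-fold higher at 4 weeks, Gpnmb and Atp6v0d2, and 3 at 12 weeks, these and the galactosidase Gla. The medians were 0.26 at 4 weeks and 0.04 at 12 weeks. Gla was higher at 12 than at 4 weeks in the other groups by a mean of 1.26. Galc, which cleaves the myelin lipid galactosylceramide, differed by 0.73 at 4 weeks and 0.69 at 12 weeks, and the hydrolase Hexa by 0.30 at 4 weeks and −0.01 at 12 weeks. Neither passed. Of 14 cathepsins and cystatins, 3 were 2-fold higher at 4 weeks (Cst7, Ctse and Cstb) and 2 at 12 weeks (Cst7 and Ctse). Of 14 receptors for debris, Axl and the mannose receptor Mrc1 were 2-fold higher at 4 weeks and Axl alone at 12 weeks. Mrc1 is also a border macrophage marker, and 10 of the 13 tested markers of those cells were 2-fold higher at 4 weeks and 0 at 12 weeks. Their part in its difference was not tested. Mertk, a kinase of the same family as Axl, read 10.62 at 4 weeks and 10.16 at 12 weeks, against 10.89 in the control. Its difference was −0.27 at 4 weeks and −0.73 at 12 weeks, and it did not pass limma's test of both feeding times. The other groups differed by a mean of −0.67 between 12 and 4 weeks for Mertk.

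**Figure D4:**
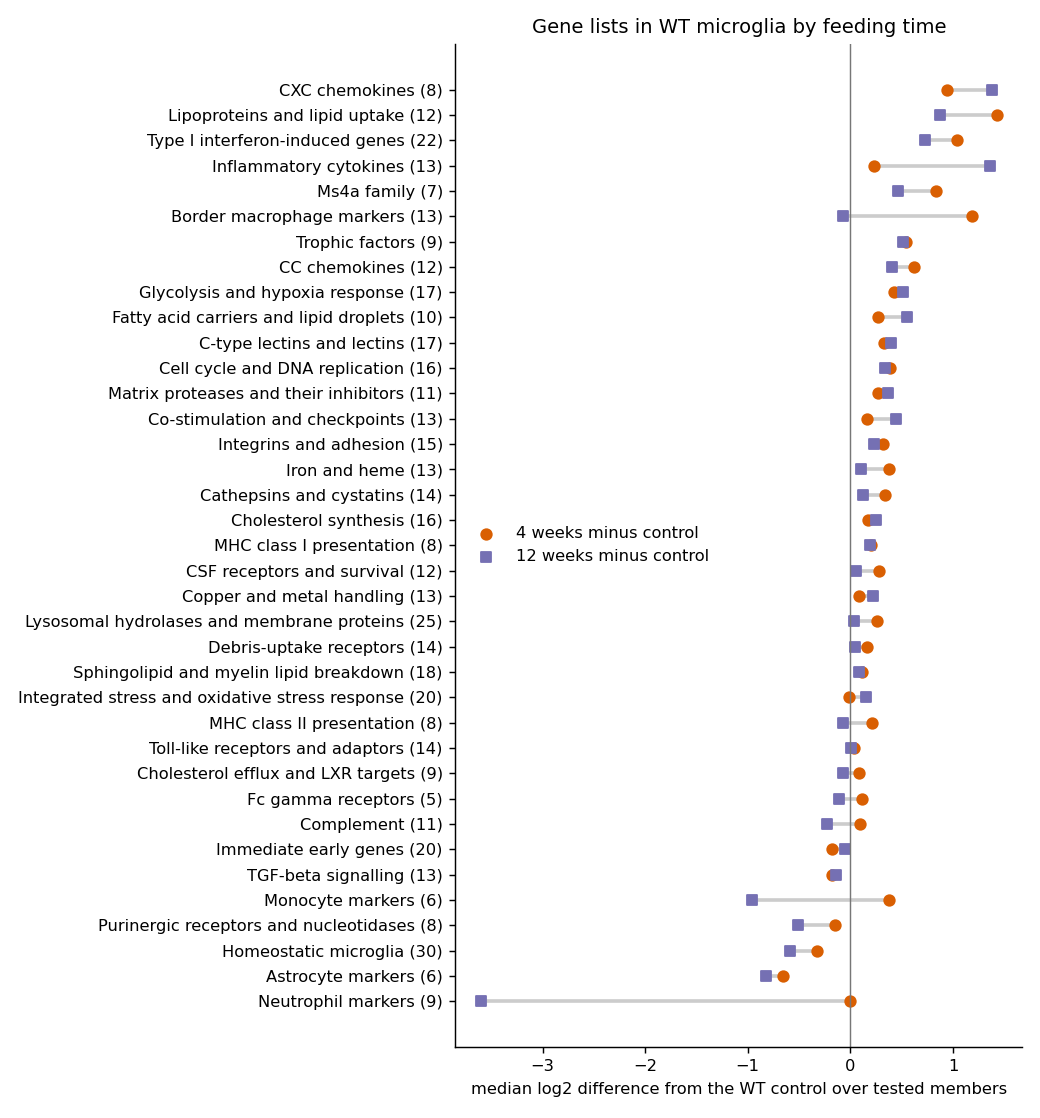
Median log2 difference from the WT control over the tested members of each gene list with at least 5 tested members, with separate symbols for 4 and 12 weeks. Lipoproteins lie to the right at both times, neutrophil markers lie at −3.60 at 12 weeks and 0.00 at 4 weeks, and homeostatic genes lie to the left of 0 at both.

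Of 13 tested inflammatory cytokine genes, 4 were 2-fold higher at 4 weeks (median 0.23) and 8 at 12 weeks (median 1.36), or 7 with the other groups' difference between 12 and 4 weeks subtracted. The median difference between 12 and 4 weeks was 1.02 in WT on cuprizone and 0.60 in the mean of the other groups. Il1b, a pyrogenic cytokine, read 11.11 at 4 weeks and 11.65 at 12 weeks, against 9.51 in the control (limma, adjusted p = 0.25, and 0.0059 with the block). Ptgs2, the inducible cyclooxygenase, read 9.06 at 4 weeks and 10.77 at 12 weeks, against 7.23 in the control, and was higher at 12 weeks in the other groups by a mean of 1.39. Csf1, the growth factor that sustains microglia, read 10.28 at 4 weeks and 10.11 at 12 weeks, against 8.75 in the control (adjusted p = 0.36, and 0.016 with the block). Tnf read 11.30 at 4 weeks and 12.32 at 12 weeks, against 11.34 in the control, and was higher at 12 weeks in the other groups by a mean of 1.025.

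Of 8 tested CXC chemokines, 4 were 2-fold higher at 4 weeks (median 0.94) and 7 at 12 weeks (median 1.38). With the other groups' difference between 12 and 4 weeks subtracted, 3 were 2-fold higher at 12 weeks (median 0.68). Cxcl2, which attracts neutrophils, read 10.58 at 4 weeks and 11.31 at 12 weeks, against 8.92 in the control (limma, adjusted p = 0.26, and 0.016 with the block). Cxcl14 was higher at 4 than at 12 weeks, with 7.64 at 4 weeks and 7.03 at 12 weeks, against 5.27 in the control. Of 12 CC chemokines, 5 were 2-fold higher at 4 weeks and 3 at 12 weeks. Among the 5 were Ccl8 and Ccl24, which are also border macrophage markers. At 12 weeks they differed by 0.205 for Ccl8 and −0.07 for Ccl24. The part of border macrophages in these counts was not tested. Ccl7, which attracts monocytes, read 10.73 at 4 weeks and 10.40 at 12 weeks, against 9.09 in the control (adjusted p = 0.10, and 0.0039 with the block). Ccl5, a chemokine for T cells, read 9.29 at 4 weeks and 10.57 at 12 weeks, against 7.40 in the control, and was higher at 12 weeks in the other groups by a mean of 1.64.

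Genes induced by type I interferon had more members past 2-fold at 4 than at 12 weeks. Of 22 tested, 12 were 2-fold higher at 4 weeks (median 1.04) and 5 at 12 weeks (median 0.73), and all 22 were above 0 at 4 weeks. Ifi27l2a, a small protein induced by interferon, read 11.05 at 4 weeks and 9.81 at 12 weeks, against 8.82 in the control. Oas1a, which senses double-stranded RNA, read 7.30 at 4 weeks and 6.45 at 12 weeks, against 5.69 in the control. Others were brightest at 12 weeks. Ifit1, which binds foreign RNA, read 5.44 at 4 weeks and 7.12 at 12 weeks, against 4.35 in the control. The antiviral GTPase Mx2 read 6.10 at 4 weeks and 7.77 at 12 weeks, against 5.41 in the control. Between 12 and 4 weeks, the other groups differed by a mean of 1.30 for Ifit1 and 0.345 for Mx2. None of the 22 passed limma's test of both feeding times, with or without the block.

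The promoters of these genes were searched for 2 copies of GAAA that are 2 bases apart, the core of the interferon-stimulated response element, on both strands in the 250 bases before each start. It was found for 9 of the 20 interferon genes with a promoter in the RefSeq table (45%) and for 936 of all 27025 genes there (3.46%). Of the 16 genes that rose, 11 had a promoter in the table, and 0 held this element or CACGTG, the core of the element of lysosomal genes, which 6.86% of all genes held. The stretches around the matches are shown for the 4 tested interferon genes with a match and the largest mean difference, on the strand of each gene, from RefSeq (GRCm38.p6), with matches in capitals. They are chr19:34640770-34640828 (plus strand) for Ifit1, chr19:34583358-34583431 (plus) for Ifit3, chr5:120907526-120907560 (minus) for Oas1a and chr12:26456548-26456587 (minus) for Rsad2.
Ifit1: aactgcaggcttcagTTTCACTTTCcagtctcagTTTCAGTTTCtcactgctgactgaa
Ifit3: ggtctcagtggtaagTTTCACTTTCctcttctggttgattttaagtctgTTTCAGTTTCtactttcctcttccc
Oas1a: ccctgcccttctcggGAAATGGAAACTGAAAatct
Rsad2: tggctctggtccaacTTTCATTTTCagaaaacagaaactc
Ifit1 and Ifit3 each hold 2 matches on the strand opposite the gene, Oas1a holds 2 that overlap, and Rsad2 holds 1 on the opposite strand. Their differences from the control at 4 weeks were 1.09 for Ifit1, 1.5 for Ifit3, 1.61 for Oas1a and 1.03 for Rsad2. At 12 weeks they were 2.77 for Ifit1, 0.99 for Ifit3, 0.77 for Oas1a and 0.95 for Rsad2. A match is a description of the sequence and not of binding.

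Genes of antigen presentation, complement and Fcγ receptors differed little. Of 8 MHC class II genes 0 were past 2-fold at either time, with medians of 0.21 at 4 weeks and −0.07 at 12 weeks. Cd74, the class II chaperone, read 10.29 at 4 weeks and 10.18 at 12 weeks, against 9.73 in the control. Of 11 complement genes 1 was 2-fold higher at 12 weeks, the receptor C5ar1, and C1qa, a subunit of the first component, read 11.86 at 4 weeks and 11.19 at 12 weeks, against 11.85 in the control. Between 12 and 4 weeks, the other groups differed by a mean of 0.56 for C5ar1 and −0.78 for C1qa. Of 5 Fcγ receptor genes, Fcgr4 was 2-fold higher at 4 weeks, with 7.93 at 4 weeks, 6.45 at 12 weeks and 6.19 in the control. Among co-stimulatory and checkpoint genes, Lilrb4a, an inhibitory receptor, read 10.17 at 4 weeks and 10.18 at 12 weeks, against 8.22 in the control (limma, adjusted p = 0.10, and 0.0061 with the block). Cd274, the ligand PD-L1, read 8.52 at 4 weeks and 8.80 at 12 weeks, against 7.10 in the control (adjusted p = 0.28, and 0.031 with the block).

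Of 17 tested lectins, 7 were 2-fold higher at 4 weeks (median 0.33) and 2 at 12 weeks (median 0.40), Clec7a and Lgals3 at both. Clec4n, the receptor dectin-2, read 6.29 at 4 weeks and 5.30 at 12 weeks, against 4.58 in the control (limma, adjusted p = 1.0, and 0.0059 with the block). Of 15 integrin and adhesion genes, the same 3 were 2-fold higher at each time: Itgax, Vcam1 and the hyaluronan receptor Cd44. Vcam1, a ligand of leukocyte integrins, read 8.36 at 4 weeks and 9.17 at 12 weeks, against 6.98 in the control (adjusted p = 0.37, and 0.028 with the block). Of 9 trophic factor genes, Igf1 was 2-fold higher at 4 weeks, and Igf1, Vegfa, Osm and Hbegf at 12 weeks. With the other groups' difference subtracted, 2 of the list were past 2-fold at 12 weeks. Hbegf differed by 1.51 at 12 weeks, less than the other groups' mean difference of 1.98 between 12 and 4 weeks. Vegfa, the vascular growth factor, read 7.05 at 4 weeks and 7.56 at 12 weeks, against 6.08 in the control. Of 11 matrix proteases and inhibitors, Mmp12 and the urokinase receptor Plaur were 2-fold higher at both times and the urokinase Plau at 12 weeks. Plaur was higher at 12 than at 4 weeks in the other groups by a mean of 1.29, and Plau by a mean of 1.345.

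Of 14 Toll-like receptor genes, 0 were past 2-fold at 4 weeks and Tlr2 at 12 weeks, with medians of 0.04 at 4 weeks and 0.01 at 12 weeks that became −0.08 at 4 weeks and −0.04 at 12 weeks with quantile normalization. Of 20 immediate early genes, 0 were past 2-fold at 4 weeks and Fosl2 at 12 weeks, with medians of −0.18 at 4 weeks and −0.06 at 12 weeks. Of 13 genes of transforming growth factor β signalling, which maintains microglia at rest, 0 were past 2-fold at 4 weeks, and Smad3 was 2-fold lower at 12 weeks, with 8.07 at 4 weeks, 7.43 at 12 weeks and 8.54 in the control. Between 12 and 4 weeks, the other groups differed by a mean of 0.52 for Tlr2, 0.05 for Fosl2 and −0.55 for Smad3. With the other groups' difference subtracted, 0 genes of these lists were past 2-fold at 12 weeks. Of 8 purinergic genes, the ATP-gated channel P2rx4 was 2-fold higher at 4 weeks, with 8.81 at 4 weeks, 7.88 at 12 weeks and 7.59 in the control. Of 20 genes of the stress response, 2 were 2-fold higher at 4 weeks, Slc7a11 and Ddit4, and 4 at 12 weeks, Asns, Slc7a11, Srxn1 and Txnrd1. The other groups' mean difference between 12 and 4 weeks was −0.30 for Asns, 1.21 for Slc7a11, 1.99 for Srxn1 and 0.98 for Txnrd1. No gene of the lists in this paragraph passed limma's test of both feeding times.

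Of 17 genes of glycolysis and hypoxia, 13 were above 0 at 4 weeks and 14 at 12 weeks, with medians of 0.43 at 4 weeks and 0.51 at 12 weeks. Past 2-fold, 2 were higher at 4 weeks and 3 at 12 weeks. Egln3, an oxygen-sensing hydroxylase, read 5.91 at 4 weeks and 6.56 at 12 weeks, against 3.28 in the control (limma, adjusted p = 0.058, and 0.0022 with the block). Pgk1, a glycolytic kinase, read 9.09 at 4 weeks and 9.40 at 12 weeks, against 8.04 in the control. Of 13 genes of copper and other metals, the metallothionein Mt2 was 2-fold higher at both times, with 9.95 at 4 weeks, 11.00 at 12 weeks and 7.99 in the control (adjusted p = 0.23, and 0.0075 with the block). Mt1 read 11.67 at 4 weeks and 11.72 at 12 weeks, against 10.71 in the control, a difference just past 2-fold at 12 weeks. The copper importer Slc31a1 and the exporter Atp7a differed by at most 0.54 at either time. Of 16 tested genes of the cell cycle, 14 were above 0 at each time and 2 past 2-fold, Mcm7 and Cdk1, with medians of 0.39 at 4 weeks and 0.34 at 12 weeks. Mcm7, part of the replicative helicase, read 5.6 at 4 weeks and 5.55 at 12 weeks, against 4.25 in the control (adjusted p = 0.18, and 0.018 with the block).

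Homeostatic genes, those that mark microglia at rest, were below the control in both libraries, apart from Ttc28 at 4 weeks (0.07). Of 30 tested, 29 were lower at 4 weeks (median −0.33, range −1.27 to 0.07) and all 30 at 12 weeks (median −0.59, range −1.46 to −0.14). Past 2-fold were 2 genes at 4 weeks and 4 at 12 weeks. With the other groups' difference between 12 and 4 weeks subtracted, 1 was 2-fold lower at 12 weeks. Without the block, 0 passed limma's test of both feeding times. With the block, 2 fell, and with the 4-week label of the conflicting library 0 did (adjusted p = 0.13 for Nav3 and 0.15 for Upk1b). Nav3, a neuron navigator gene, read 8.44 at 4 weeks and 8.25 at 12 weeks, against 9.71 in the control (adjusted p = 0.23, and 0.026 with the block). Upk1b, a tetraspanin, read 8.73 at 4 weeks and 8.65 at 12 weeks, against 9.78 in the control (adjusted p = 0.25, and 0.042 with the block). The others past 2-fold at 12 weeks were Sall1 and Slc2a5. Sall1, the transcription factor of microglial identity, read 10.16 at 4 weeks and 9.62 at 12 weeks, against 10.75 in the control. The fructose transporter Slc2a5 read 8.88 at 4 weeks and 8.66 at 12 weeks, against 9.75 in the control. Between 12 and 4 weeks, the other groups differed by a mean of −0.786 for Sall1 and −0.485 for Slc2a5. P2ry12, a receptor for extracellular nucleotides, read 11.00 at 4 weeks and 10.77 at 12 weeks, against 11.46 in the control. The median difference of the list between 12 and 4 weeks was −0.18 in WT on cuprizone and −0.28 in the mean of the 3 other groups.

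**Figure D5:**
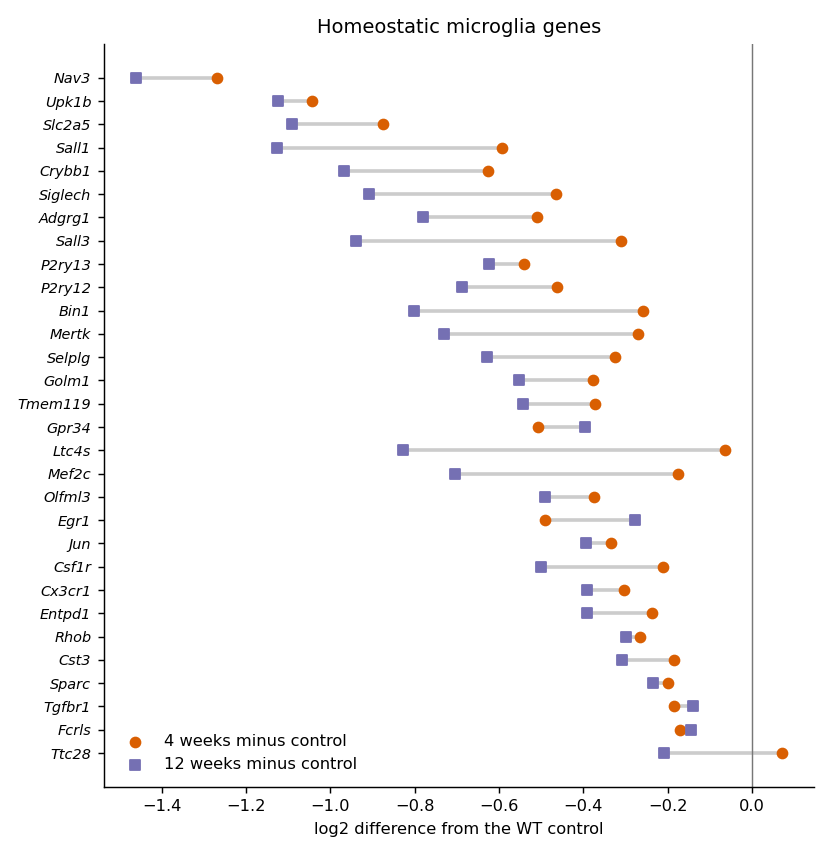
Difference from the WT control (log2) of the 30 tested homeostatic genes at 4 and 12 weeks, 2 points per gene. At 12 weeks all 30 points lie below 0, and Nav3, Upk1b, Sall1 and Slc2a5 lie past −1.

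Markers of other macrophages and white cells differed between the 4- and 12-week libraries, for which duration and run cannot be told apart. Of 13 tested markers of border macrophages, which line vessels and the meninges, 10 were 2-fold higher at 4 weeks (median 1.18) and 0 at 12 weeks (median −0.07). Their summed linear intensity was 5538.8 at 4 weeks, 2343.3 at 12 weeks and 2623.4 in the control. Lyve1, a hyaluronan receptor, read 8.53 at 4 weeks and 6.84 at 12 weeks, against 6.76 in the control, and Cd163, the haemoglobin scavenger receptor, read 7.34 at 4 weeks and 5.25 at 12 weeks, against 5.77 in the control. The median difference of these markers between 12 and 4 weeks was −1.25 in WT on cuprizone and −1.13 in the mean of the 3 other groups. Their part in the 4-week differences was not tested.

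Of 9 tested neutrophil markers, 1 (Mpo) was 2-fold higher at 4 weeks (median 0.00) and 7 were 2-fold lower at 12 weeks (median −3.60), and their median difference between 12 and 4 weeks was −3.79 in WT on cuprizone and −3.90 in the other groups. Of 6 monocyte markers, 2 were 2-fold higher at 4 weeks, Fn1 and Plac8, while at 12 weeks Fn1 was 2-fold higher and 3 were 2-fold lower, Ccr2, Chil3 and S100a4. Ccr2, the receptor that brings monocytes into tissue, read 5.97 at 4 weeks and 4.34 at 12 weeks, against 6.23 in the control. Among 2 tested endothelial markers, Flt1 read 6.20 at 4 weeks and 5.77 at 12 weeks, against 4.33 in the control, and Pecam1 read 5.46 at 4 weeks and 5.58 at 12 weeks, against 6.04 in the control, so the pair lay on opposite sides of the control.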

How the data were processed

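Gene expression was measured on 10 microarrays, and the deposited table gives 1 linear intensity value per probe and array. The steps by which the authors summarized probes, corrected background and normalized the arrays before they deposited the intensity values were not given in the sources used here. Log2 was taken of the deposited intensity with no further scaling. Of 24567 probes, 21259 name 1 gene in the platform's annotation, 1274 name several and 2034 are not listed there. Genes with several probes (888) kept the brightest. A gene was tested if it exceeded the table's median (5.27 as log2, 38.5 as intensity) on at least 2 arrays, as 10792 of 19749 genes did. Of the single-gene probes, 21182 matched the RefSeq gene table by Entrez identifier, and 0 symbols were updated.

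All 10 libraries entered lmFit and eBayes of limma (version 3.58.1, under R 4.3.3), and p-values were adjusted by Benjamini-Hochberg over the genes tested, with a threshold of 0.05. With 6 groups of genotype and diet, 4 residual degrees of freedom were left. With the WT 4- and 12-week libraries as groups of their own, 7 groups left 3, and the duration block left 2. Each duration holds 1 library, so its difference from the control was counted past 2-fold, with limma's pooled spread beside it. The script was tested on simulated data. For 1 Trem2-/- cuprizone library the title says 12 weeks and the time label 4 weeks, and the title was followed. Named genes are those past the threshold for both durations, the 15 largest differences each way per duration and the 10 largest each way between durations among genes at least 1 log2 unit above the table's median in the brighter library, members of the 44 gene lists, and Trem2. The members and lists were chosen with earlier results of these data known. Of the 626 distinct list genes, 468 were tested. Other genes past a threshold are named where 5 or fewer were counted (Ttr and Mir146), chosen after their values were seen. The alternatives were the duration block, the conflicting label, scaling, filters, a pseudocount of 16, the probe rule, a trended variance and leaving out each library.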

Additional observations from a re-analysis of the deposited data

Results flagged for a closer look

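Probes that name several genes or none in the platform's annotation were used in no comparison, and 1652 of them were bright enough on at least 2 arrays. Of these, 39 were 2-fold or more higher at 4 weeks than in the WT control and 14 were lower. At 12 weeks, 44 were 2-fold or more higher than in the control and 79 were lower. The genes behind these probes are not named here.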

How the results depend on the processing

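The labels give no replicate numbers, and the titled duration, which coincides with the run of sample numbers, served as the replicate block. With the block, 105 genes in place of 16 passed for both feeding times (37 with the conflicting library as 4 weeks, and likewise in the brackets that follow), 70 in place of 5 at 4 weeks (18) and 19 in place of 2 at 12 weeks (2). Leaving out 1 library at a time gave 2 to 16 genes for both feeding times, 3 to 8 at 4 weeks and 0 to 6 at 12 weeks. The 5 WT libraries alone gave 2 genes for both. Subtracting array medians gave 8 at 4 weeks. A filter on every array above the table's median left 0 calls in each of these tests. It removes genes that are dim on any array, but not all of the 16, and those that stayed in were not called. It also left 143 in place of 249 genes past 2-fold at 4 weeks, 328 in place of 521 at 12 weeks and 193 in place of 332 between 12 and 4 weeks. The pseudocount gave 328 at 12 weeks and 207 between the durations. Subtracting the other groups' difference (chosen after seeing the data) gave 259 at 12 weeks and 104 between the durations. The other 44 comparison counts stayed within 1.5 times. Of the list medians recomputed, 367 moved by less than the spread between feeding times and 63 by more. The sign turned for 5 of 86 list medians, each of size 0.112 or less, and for 9 of 68 named genes' mean differences over both feeding times, none of which passed the test in either setting. Signals near background limit the size of differences for dim genes, and 1 control library limits every comparison with it.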

Other observations

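Ttr, transthyretin, a product of the choroid plexus, was the 1 gene 4-fold or more lower at 4 weeks, with a log2 intensity of 4.14 at 4 weeks and 5.53 at 12 weeks, against 6.15 in the control. The WT recovery library titled 4 weeks read 10.95 for Ttr, the Trem2-/- cuprizone library of 4 weeks 9.58 and the Trem2-/- recovery library of 4 weeks 9.87, against 5.09 in the Trem2-/- control. No comparison of the report rests on Ttr.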
